A study of Mus musculus with 18 samples.

Results

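Interferon-induced members of the PARP family and their partner Dtx3l were followed through RNA-seq of mouse adipocytes in which IRF3 was activated or deleted. The set was given as a list of 6 genes, Parp9, Dtx3l, Parp10, Parp11, Parp12 and Parp14, out of 33440 genes in the deposited tables, and all 6 passed the filter on low counts in every comparison. PARP proteins are ADP-ribosyltransferases, which use NAD to attach ADP-ribose to proteins or nucleic acids. The members studied here belong to the branch of the family that transfers single ADP-ribose units or, in the case of PARP9, has little activity of its own and works as a heterodimer with the ubiquitin ligase DTX3L. Their genes are commonly induced by interferons in many cell types, and their products take part in antiviral defence and in the control of interferon signalling.

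Both experiments used mice of the C57BL/6 strain. In the first, stromal-vascular fraction (SVF) cells were taken from the inguinal white fat of IRF3-2D mice aged 4 to 6 weeks, differentiated into adipocytes and given a virus on day 6, either AAV-GFP (3 libraries, called WT) or AAV-GFP-Cre (3 libraries, called FI3OE), with harvest on day 8. IRF3-2D is a constitutively active form of Irf3 whose knock-in allele is silent until Cre acts. In WT cells that allele was present without recombination, and the presence of Cre is a second difference between the groups. In the second, RNA bound to GFP-tagged ribosomes was isolated by translating ribosome affinity purification (TRAP) from epididymal white fat of adipocyte Irf3 knockout mice (FI3KO, 6 libraries) and WT mice (6 libraries), all kept on a high-fat diet (HFD) for 8 weeks at thermoneutrality. The age of these mice at collection was not given in the labels. The study's methods give male mice aged 8 weeks at the start of a 60% high-fat diet, without naming the TRAP mice. The knockout and the tag were driven by Adipoq-Cre, which acts in adipocytes, so Irf3 in other cells of the fat pad was not targeted. Libraries were labelled as biological replicates, and which animals or cultures they came from was not given in the labels.

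Total reads assigned to genes lay between 21541334 and 36932452 in the SVF-derived libraries and between 25259869 and 40490283 in the TRAP libraries. Levels are given as CPM, the reads of a gene scaled to 1000000 reads assigned to genes in that library, or as TPM, which is also divided by transcript length. Irf3 itself had 90.8 to 100.3 CPM in FI3OE against 56.8 to 58.6 in WT cells. In TRAP it had 12.4 to 18.8 CPM in FI3KO and 17.2 to 23.1 in WT, so that 5 of 6 FI3KO libraries lay below every WT library (log2 fold change -0.35, adjusted p = 0.0198 by edgeR's quasi-likelihood test). In TPM, Irf3 stood the other way, at 55.1 to 93.5 in FI3KO and 37.8 to 47.3 in WT, so the check of the targeted gene depends on the unit. WT TRAP libraries 1 and 2 differed from each other less than any other pair within a group, with a median chi-square per gene of 0.771 against 1.29 for the next closest WT TRAP pair, and with the 2 counted as 1 library the calls of Parp9 and Parp14 given below stood (adjusted p = 0.0209 and 0.0255 by edgeR). The 10 adipocyte marker genes summed to 24824 to 32419 CPM in TRAP and to 6540 to 6803 CPM in the cultures. The 15 macrophage marker genes summed to 17.5 to 48.9 CPM in FI3KO TRAP, 41.2 to 108.7 in WT TRAP, 2285 to 2301 in FI3OE and 2380 to 2536 in WT cultures, and none of them was at 0 in a whole group. In these bulk samples, fewer cells of a type and less RNA per cell cannot be told apart.

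Parp14, Dtx3l and Parp9 lie near each other on mouse chromosome 16 (build GRCm38). Dtx3l (chr16:35926511-35939151, minus strand) and Parp9 (chr16:35938470-35972605, plus strand) are transcribed away from each other and overlap at their starts by 682 bases, of which 458 are exonic in both. Parp14 (chr16:35832874-35871544, minus strand) lies 54967 bases from Dtx3l. Parp11 (chr6:127446840-127494261, plus strand) and Parp12 (chr6:39086410-39118349, minus strand) are on chromosome 6, and Parp10 (chr15:76231174-76243441, minus strand) is on chromosome 15, where it overlaps Plec. The library kit does not mark the strand, so reads from the exonic overlap of Parp9 and Dtx3l cannot be told apart. Parp9, Parp11 and Parp14 also overlap the annotated genes Gm15564, Gm43633 and Gm49730, respectively, for which exonic overlap was not computed.

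The windows of Parp11 are shown because it has 2 of them and because its transcripts are compared further on. RefSeq promoter windows (GRCm38.p6, 250 bases before to 50 after a start) were matched for 3 of 6 members, Parp11, Parp12 and Dtx3l. They were searched on both strands for GAAA followed, after any 2 bases, by GAAA, the core of the interferon-stimulated response element, which 1131 of 32851 windows hold (3.44%). The window of the upstream Parp11 start holds 1 match, on the minus strand, beginning 44 bases before the start, and the windows of the downstream Parp11 start, of Parp12 and of Dtx3l hold none. A second motif, TTCNNNGAA (the gamma-activated site), was searched after the values were seen. It reads the same on both strands and is held by 2726 of 32851 windows (8.3%). It has 1 match in the upstream Parp11 window, beginning 37 bases before the start, so that it overlaps the first match, and none in the other 3 windows. The 250 bases before each Parp11 start are given on the plus strand, with the match to the first motif in capitals, for chr6:127446590-127446839 and chr6:127453377-127453626.
Parp11 upstream start: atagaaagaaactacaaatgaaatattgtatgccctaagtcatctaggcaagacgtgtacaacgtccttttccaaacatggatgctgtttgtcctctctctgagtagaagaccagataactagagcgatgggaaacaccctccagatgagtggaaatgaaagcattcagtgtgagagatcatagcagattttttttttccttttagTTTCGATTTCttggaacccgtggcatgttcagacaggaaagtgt
Parp11 downstream start: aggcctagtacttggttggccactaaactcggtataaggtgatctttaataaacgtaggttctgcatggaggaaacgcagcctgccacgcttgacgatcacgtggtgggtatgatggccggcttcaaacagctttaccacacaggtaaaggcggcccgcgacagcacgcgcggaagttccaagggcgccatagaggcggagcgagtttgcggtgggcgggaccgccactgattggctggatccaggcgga
A match is a run of letters only, and binding was not measured.

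All 6 members were higher in FI3OE than in WT SVF-derived adipocytes, and the parts of active IRF3 and of Cre in this difference cannot be told apart. Of 16105 genes tested, 20.2% were called higher in FI3OE and 16.8% lower, at an adjusted p of 0.05 or less (edgeR, quasi-likelihood test, p-values adjusted by the method of Benjamini and Hochberg). All 6 members were among those higher. Of the genes tested, 24.1% had all FI3OE libraries above all WT libraries, as was the case for 6 of 6 members. The median log2 fold change was 0.76 for the members and -0.0047 for all genes tested. The rises were moderate, from 1.54-fold to 2.2-fold on mean CPM, and 1 member, Parp11, also had a log2 fold change of at least 1, which 1.99% of genes met together with the adjusted p.

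Parp9, which has macrodomains that bind ADP-ribose, had 167.8, 168.3 and 161.9 CPM in FI3OE replicates 1 to 3 and 106.0, 97.0 and 101.5 CPM in WT replicates 1 to 3. Every FI3OE library lay well above every WT library, and the means differed 1.64-fold. The log2 fold change was 0.73 (SE 0.041, adjusted p = 1.23e-07 by edgeR). Its partner Dtx3l, the E3 ubiquitin ligase of the heterodimer, had 219.5, 235.7 and 210.7 CPM in FI3OE and 132.4, 123.4 and 130.1 CPM in WT. FI3OE libraries were again all higher, with a log2 fold change of 0.80 (SE 0.049, adjusted p = 2.31e-07 by edgeR).

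Parp14, a large macrodomain-containing transferase that is the neighbour of this pair, had 335.0, 331.7 and 317.2 CPM in FI3OE and 217.5, 202.4 and 219.4 CPM in WT. It had the smallest of the 6 fold changes, a log2 value of 0.64 (SE 0.042, adjusted p = 4.18e-07 by edgeR), although its groups were far apart. Parp10, a transferase for single ADP-ribose units, had 93.3, 91.7 and 94.1 CPM in FI3OE and 57.0, 60.7 and 58.6 CPM in WT. Its log2 fold change was 0.68 (SE 0.039, adjusted p = 1.36e-07 by edgeR), and no library of either group came near the other group.

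Parp12, a zinc finger member that acts against several viruses, had 150.5, 148.7 and 143.0 CPM in FI3OE and 81.9, 83.2 and 79.6 CPM in WT. Its log2 fold change was 0.87 (SE 0.038, adjusted p = 1.46e-08 by edgeR). Parp11, a WWE-domain member that has been linked to control of the interferon receptor, had 82.3, 82.9 and 72.4 CPM in FI3OE and 36.4, 36.2 and 35.3 CPM in WT. FI3OE replicate 3 was the lowest of its group and still far above each WT library. Parp11 had the largest fold change of the set, a log2 value of 1.15 (SE 0.056, adjusted p = 3.44e-08 by edgeR). No alternative processing, left-out library included, took any of the 6 calls away in this experiment, and the log2 fold change of Parp11 stayed between 1.05 and 1.22 over 13 alternatives.

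**Figure D1:**
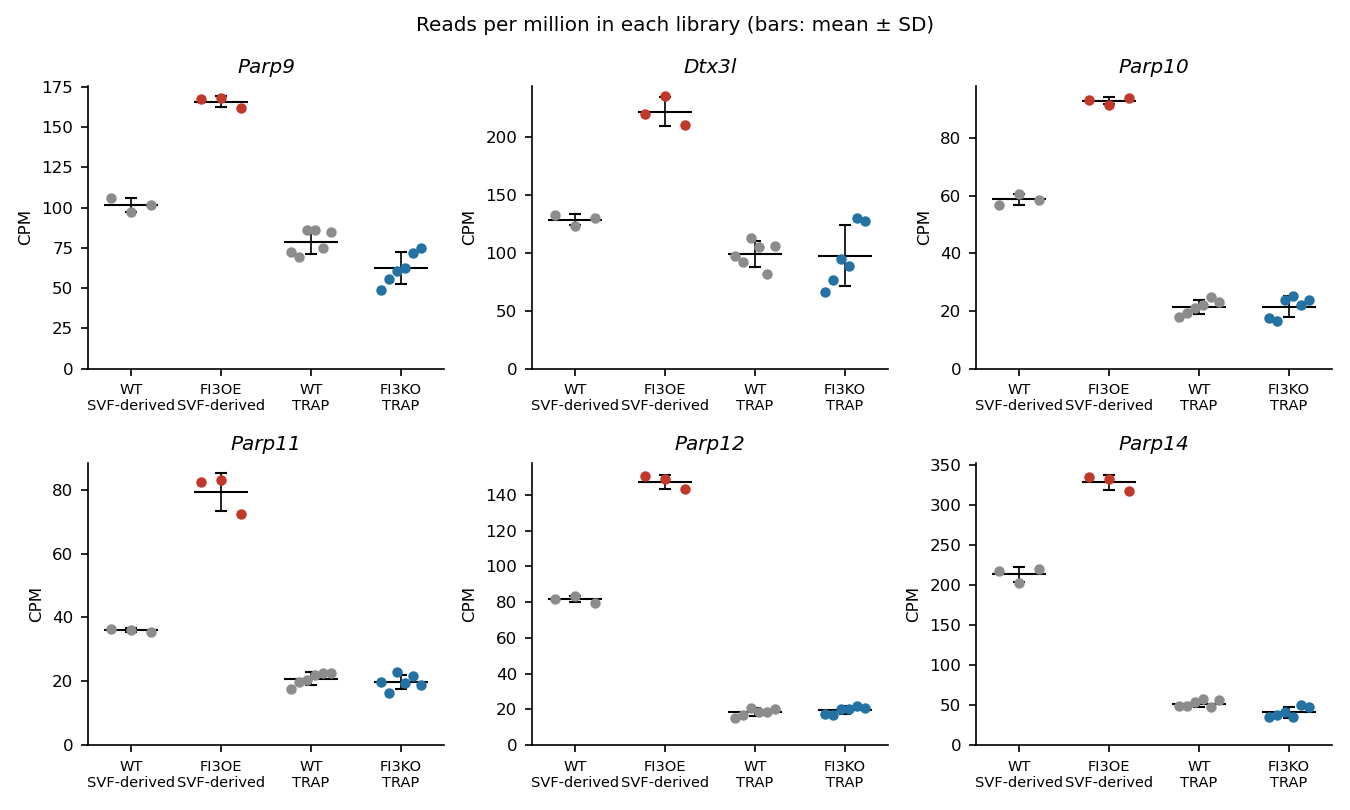
Level in CPM (vertical axes from 0) for each member in every library of the 4 groups, with the mean and SD as bars. All 3 FI3OE libraries sit above all 3 WT libraries for each of the 6 genes, while FI3KO and WT TRAP libraries overlap for each of them.

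A list of interferon-stimulated reference genes gave values mostly larger than those of the members. All 12 were called higher, and their log2 fold changes had a median of 1.76, from 0.94 for Rtp4 to 3.46 for Ccl5, a chemokine. Ifit1, which binds viral RNA, rose from 223.9 to 933.7 CPM (log2 fold change 2.08), and Isg15, a ubiquitin-like modifier, from 44.0 to 160.1 CPM (1.88). In the list of genes that carry the interferon signal, 8 of 16 tested were higher and 2 lower, from 1.41 for Usp18, which deconjugates ISG15, to -0.23 for Ifnar1, a subunit of the type I interferon receptor. The smallest called reference gene, Rtp4, thus had a larger log2 fold change than 5 of the 6 members. The test of that difference was not made.

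Other family members moved in both directions. Of 11 other ADP-ribosyltransferase genes tested, 5 were called higher, 2 lower and 4 neither, with a median log2 fold change of -0.05. Zc3hav1, the zinc finger antiviral protein and an inactive PARP, had the largest of the called values at 0.38, and Parp6 the smallest at -0.41. Of 6 genes for the removal of ADP-ribose that were tested, 2 were higher, with Adprs, an ADP-ribosylserine hydrolase, at 0.39, and 1 was lower, Macrod1, a macrodomain hydrolase, at -0.75. Among the other deltex ligases 1 of 3 was higher (Dtx4, 0.31) and 2 were not called. Of 15 genes for NAD synthesis and use, 4 were higher and 6 lower, between 0.47 for Nmnat2 and -0.95 for Qprt, both enzymes of NAD synthesis. Of 15 macrophage markers 2 were higher and 3 lower, with a median of 0.02, and of 8 fibroblast and preadipocyte markers 1 was higher and 2 lower, with a summed level of 12709 to 12859 CPM in FI3OE and 13476 to 13866 CPM in WT. Of 10 adipocyte markers 2 were higher and 5 lower, with a median of -0.083. The 1 T cell marker tested, Cd3d, was lower (-1.13), and none of 4 endothelial and 3 mesothelial markers was called. The part of these cells in the rise of the members was not tested.

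Transcripts were then compared for the members, limited to the 13 of 30 annotated that held at least 5% of their gene's reads in a group. Of all 47647 transcripts tested, to which this limit was not applied, 3.77% were called higher in FI3OE, so the 2 sets are unlike. Among the 13 member transcripts, 7 were called higher in FI3OE. They were Parp11-201, described here in full, Parp12-201 (log2 fold change 0.92), Dtx3l-201 (0.88), Parp9-203 (0.82, adjusted p = 0.0101 by edgeR), Parp9-201 (0.76, adjusted p = 0.0063), Parp14-201 (0.68) and Parp14-203 (0.58). The call of Parp9-203 was lost without FI3OE replicate 3 or WT replicate 1 or 2 (adjusted p = 0.0505 to 0.0509 by edgeR). Salmon divides reads among transcripts that share sequence, and the uncertainty of this division is not in the values used here. Parp11-202 begins at the upstream start, the one with the motif, and Parp11-201 close to the downstream one, and the 2 share 3254 bases and differ by 160 and 492 bases, respectively. Parp11-201 had 44.2, 35.5 and 33.6 CPM in FI3OE replicates 1 to 3 and 7.36, 14.5 and 11.1 CPM in WT. Its log2 fold change was 1.83 (SE 0.27, adjusted p = 0.0193 by edgeR). Parp11-202 had 25.5, 34.1 and 27.9 CPM in FI3OE and 20.4, 15.1 and 17.9 CPM in WT, and its log2 fold change of 0.77 missed the threshold (SE 0.16, adjusted p = 0.0524 by edgeR). All FI3OE libraries were above all WT libraries for both, as they were for 24.1% of genes. That share was not computed over transcripts. The downstream transcript took 47.7% ± 5.57 of the gene's reads in FI3OE and 30.6% ± 9.96 in WT (SD, n = 3), and the difference between the transcripts was not tested. The call of Parp11-201 was lost without FI3OE replicate 1, 2 or 3 or WT replicate 3 (adjusted p = 0.0642 to 0.0811 by edgeR). That of Parp11-202 was gained with a minimum of 10 counts in every library (adjusted p = 0.017 by edgeR) and with DESeq2 (4.41e-05). Parp10-201 and Dtx3l-202, not called in the main fit, were called in 2 and 1 of 11 alternatives, respectively. Parp12-201, Parp14-201 and Parp14-203 were not followed through the alternatives.

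**Figure D2:**
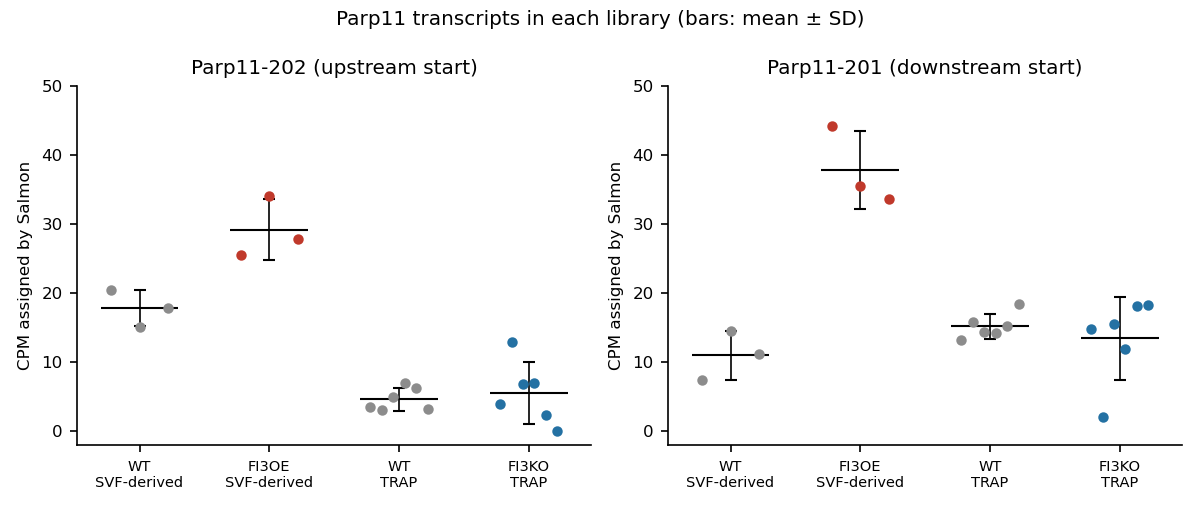
CPM that Salmon assigned to the upstream (Parp11-202) and the downstream (Parp11-201) transcript of Parp11 in each library, with the mean and SD as bars. In the cultures, FI3OE libraries lie above WT libraries in both panels, and in TRAP the groups overlap.

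In FI3KO TRAP 2 of 6 members, Parp9 and Parp14, were called lower than in WT. Of 13624 genes tested, 18.3% were called lower in FI3KO and 19.1% higher, so the 2 members called lower are to be read against that share. No member was called higher, and none had groups without overlap, which 9.82% of genes showed for lower and 5.39% for higher values. The median log2 fold change was -0.00035 for the members and 0.016 for all genes tested. The 2 comparisons of IRF3 share no library.

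Parp9 had 48.7 (lowest), 61.6 (median) and 74.7 (highest) CPM in FI3KO TRAP and 69.5, 80.0 and 86.0 CPM in WT TRAP. In 4 of 6 FI3KO libraries it was below every WT library, and the other 2, replicates 5 and 6, lay within the WT range. The log2 fold change was -0.29 (SE 0.092, adjusted p = 0.0242 by edgeR). Parp14 had 34.6, 39.0 and 49.8 CPM in FI3KO and 47.6, 51.1 and 57.0 CPM in WT, with 4 of 6 FI3KO libraries below all WT libraries and replicates 5 and 6 again within the WT range. Its log2 fold change was -0.30 (SE 0.092, adjusted p = 0.0234 by edgeR). Both falls were small and near the threshold. Without FI3KO replicate 3 or 4, or WT replicate 4 or 6, neither gene was called (adjusted p = 0.0506 to 0.0582 by edgeR), and Parp9 was also not called without WT replicate 3 (0.0565). With no filter on low counts neither was called (0.0598 and 0.0608), and Parp14 alone was also lost with a length offset (0.0587) and with the replicate number as a block (0.0509). The direction held for both in all 23 alternatives.

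Beside these values, 11 of 13 macrophage markers tested were lower in FI3KO and 1, Cd14, was higher, with a median log2 fold change of -1.5. Their summed level was lower in FI3KO replicates 3 to 6 (17.5 to 20.2 CPM) than in replicates 1 and 2 (37.5 and 48.9 CPM), and in WT it was 77.1 to 108.7 CPM in replicates 3 to 6 and 41.2 and 42.1 CPM in replicates 1 and 2. Lyz2, a macrophage lysozyme, had 2.86 to 24.7 CPM in TRAP and 740.8 to 827.4 CPM in the cultures. Of 8 fibroblast and preadipocyte markers 1 was higher and 2 lower, with a summed level of 541.7 to 1024 CPM in FI3KO and 970.7 to 2199 CPM in WT. Of 10 adipocyte markers 3 were higher and 1 was lower, with a summed level of 24824 to 29087 CPM in FI3KO and 27542 to 32419 CPM in WT. The 1 T cell marker tested, Trac, was lower (-1.47, adjusted p = 0.00645 by edgeR), and the T cell markers summed to 0.256 to 0.911 CPM in FI3KO and 0.76 to 1.26 CPM in WT. None of 4 endothelial and 4 mesothelial markers was called. The part of these cells in the falls of Parp9 and Parp14 was not tested.

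Dtx3l had 66.5, 91.9 and 130.4 CPM in FI3KO and 81.5, 101.3 and 113.0 CPM in WT. Its FI3KO libraries lay on both sides of the WT range, with replicates 1 and 2 below it and replicates 5 and 6 above it. The log2 fold change was 0.021 (SE 0.15, adjusted p = 0.923 by edgeR). Parp10 had 16.4, 23.0 and 25.3 CPM in FI3KO and 17.9, 21.5 and 24.9 CPM in WT (log2 fold change 0.058, SE 0.11, adjusted p = 0.70 by edgeR). Parp11, the member with the largest difference between FI3OE and WT, had 16.5, 19.6 and 22.9 CPM in FI3KO and 17.4, 21.3 and 22.7 CPM in WT (-0.022, SE 0.080, adjusted p = 0.853). Parp12 had 17.1, 20.3 and 21.8 CPM in FI3KO and 15.1, 18.7 and 20.9 CPM in WT (0.14, SE 0.079, adjusted p = 0.189). For these 4 members the groups overlapped, and a difference was not detectable beyond the spread of the libraries.

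**Figure D3:**
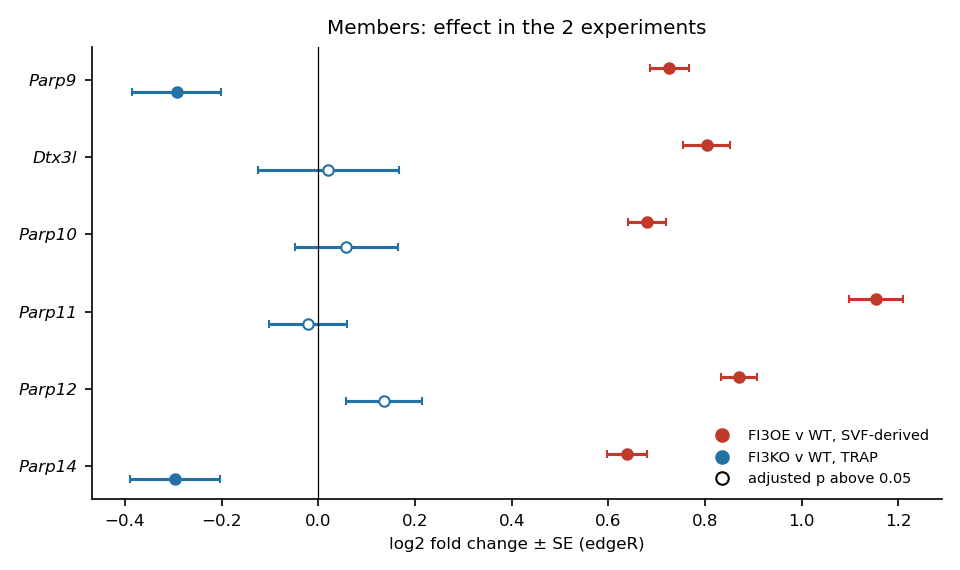
Log2 fold change (horizontal axis, edgeR) of each member with its SE, in FI3OE against WT cultures and in FI3KO against WT TRAP, with open circles where the adjusted p was above 0.05. All 6 values are between 0.64 and 1.15 in the cultures, and between -0.30 and 0.14 in TRAP.

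The TRAP comparison was also made within replicates 1 and 2 and within replicates 3 to 6, a split that the labels do not name. The median chi-square per gene between the 2 sets was 4.9 to 7.07 in WT, above the 1.29 to 4.42 within WT replicates 3 to 6. In FI3KO it was 5.03 to 8.65, which overlapped the 1.56 to 5.31 within FI3KO replicates 3 to 6, where 3 and 4 (1.56) and 5 and 6 (1.62) were each close pairs. No fit counted either of these FI3KO pairs as 1 library. For Parp9, FI3KO replicates 1 and 2 had 48.7 to 55.6 CPM against 69.5 to 72.2 in WT, and replicates 3 to 6 had 60.5 to 74.7 against 75.0 to 86.0. FI3KO was lower than WT in both sets, without overlap in either. The share of all genes without overlap within a set was not computed, and the first set holds 2 libraries per genotype. The log2 fold change of Parp9 was -0.38 in replicates 1 and 2 (adjusted p = 0.063 by edgeR) and -0.25 in replicates 3 to 6 (adjusted p = 0.0332). For Parp14 it was -0.37 (adjusted p = 0.0592) and -0.26 (adjusted p = 0.0833 by edgeR). For Dtx3l, replicates 1 and 2 had 66.5 to 76.4 CPM in FI3KO against 92.0 to 97.6 in WT, and replicates 3 to 6 had 89.0 to 130.4 against 81.5 to 113.0. FI3KO was thus lower without overlap in the first set of 2 against 2 libraries (log2 fold change -0.35, not called by edgeR) and overlapped in the second. The test of this difference between sets gave a log2 value of -0.53 for Dtx3l (SE 0.23, adjusted p = 0.113 by edgeR), and no member passed, while 26.5% of genes did. Without FI3KO replicate 4, Dtx3l passed (adjusted p = 0.0449 by edgeR).

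A ratio within a library needs no scaling between libraries, and the 2 genes of the heterodimer were compared in this way. In TPM, which is per length, Dtx3l stood at 0.675, 0.749, 0.813, 0.794, 0.983 and 0.938 of Parp9 in FI3KO replicates 1 to 6. In WT TRAP replicates 1 to 6 it stood at 0.722, 0.727, 0.746, 0.660, 0.570 and 0.676. The 4 highest values of all were those of FI3KO replicates 3 to 6, and FI3KO replicates 1 and 2 were close to WT. The mean log2 ratio was -0.29 ± 0.20 in FI3KO and -0.55 ± 0.14 in WT (SD, n = 6), a difference of 0.27 (p = 0.0216 in a two-sided exact permutation test, 0.0433 after Benjamini-Hochberg adjustment over the 2 comparisons of this ratio). With 1 library left out the difference was 0.21 to 0.32 (exact permutation p = 0.00433 to 0.0433 unadjusted, 0.00866 to 0.0866 adjusted in the same way). After adjustment it passed without FI3KO replicate 1 or without WT replicate 3. It did not pass in the other 10 of these 12 cases, so the adjusted call in TPM depends on nearly every library. With CPM in place of TPM, the ratio in every FI3KO library was above that in every WT TRAP library (exact permutation p = 0.002165, unadjusted). Within replicates 3 to 6, a subset looked at after the values were seen and given as a description, the difference in TPM was 0.41. Within replicates 1 and 2 it was -0.028. In the cultures the mean log2 ratio was -0.42 ± 0.074 in FI3OE and -0.46 ± 0.037 in WT (SD, n = 3), and the difference of 0.034 was within the spread of the libraries (exact permutation p = 0.70, where 3 against 3 cannot go below 0.10). Salmon divides reads from the shared exon bases between the 2 genes, and the uncertainty of this division is not in the ratios.

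**Figure D4:**
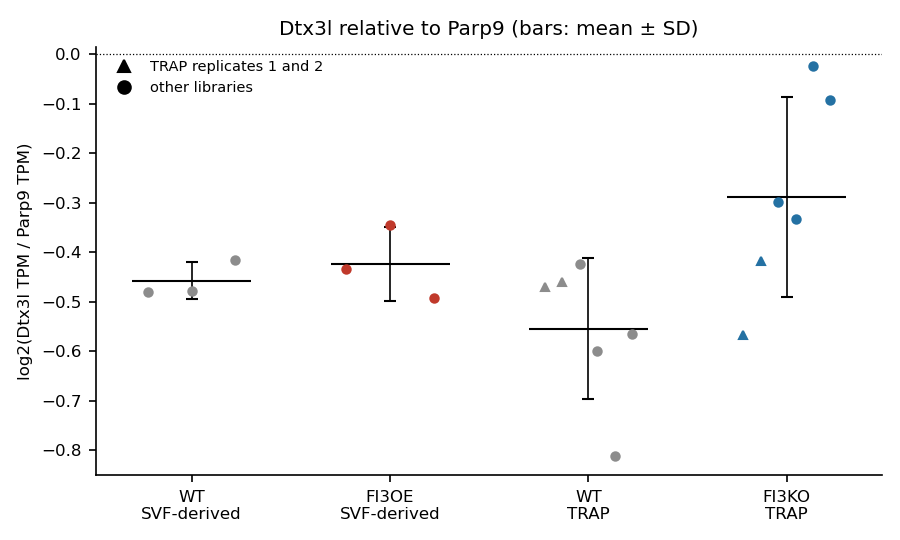
Log2 ratio of Dtx3l to Parp9 in TPM (vertical axis) for each library of the 4 groups, with the mean and SD as bars and TRAP replicates 1 and 2 as triangles. FI3KO replicates 3 to 6 lie above every WT TRAP library, and the triangles of both genotypes lie together between -0.57 and -0.42.

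Transcripts of Parp9 were compared in TRAP as well. Parp9-203 holds all of Parp9-201 and 575 more exonic bases, of which 317 lie in exons of Dtx3l. In TRAP, Parp9-203 had 8.00 (lowest), 21.8 (median) and 32.8 (highest) CPM in FI3KO and 27.8, 32.4 and 54.6 CPM in WT. The groups overlapped, and the log2 fold change of -0.67 did not pass (SE 0.27, adjusted p = 0.158 by edgeR). Parp9-201 had 28.0, 38.6 and 41.8 CPM in FI3KO and 25.4, 39.9 and 44.6 CPM in WT (log2 fold change 0.049, adjusted p = 0.90 by edgeR). Of 32213 transcripts tested in TRAP, 4.92% were called lower and 4.61% higher, and none of the 12 member transcripts tested that held at least 5% of their gene's reads in a group was among them. The uncertainty in how Salmon placed reads between the 2 genes was not tested.

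In the TRAP comparison the same lists of the wider pathway were followed. Of 11 other ADP-ribosyltransferase genes, 3 were higher, up to 0.28 for Parp4, and 2 were lower, down to -1.21 for Parp8, with a median of 0.055. Parp3, the other gene called lower, fell by 0.75 on the log2 scale with no overlap between the groups. In the cultures Parp3 (0.34) and Parp8 (0.22) were called higher. Parp4 (0.15) and Zc3hav1 (0.38) were called higher in the cultures and in TRAP too. Of 6 genes for ADP-ribose removal, 3 were higher, from 0.32 for Adprs to 0.62 for Oard1, a macrodomain hydrolase, and none was lower. Among the deltex ligases 1 of 3 was called, Dtx2 (0.50). Of 12 genes for NAD synthesis and use, 2 were higher and 3 lower, from 1.05 for Nmnat3 to -0.78 for Nmnat2. Of the genes that carry the interferon signal, 2 of 16 were higher and 6 lower, from 1.15 for Socs1, a feedback inhibitor, to -0.50 for Ifngr2, a subunit of the interferon gamma receptor. Of 11 reference genes tested, 1 was called, Zbp1, a nucleic acid sensor (-1.19). Ifit1 had 1.07 to 3.46 CPM and Isg15 0.448 to 1.05 CPM in TRAP, and neither was called.

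**Figure D5:**
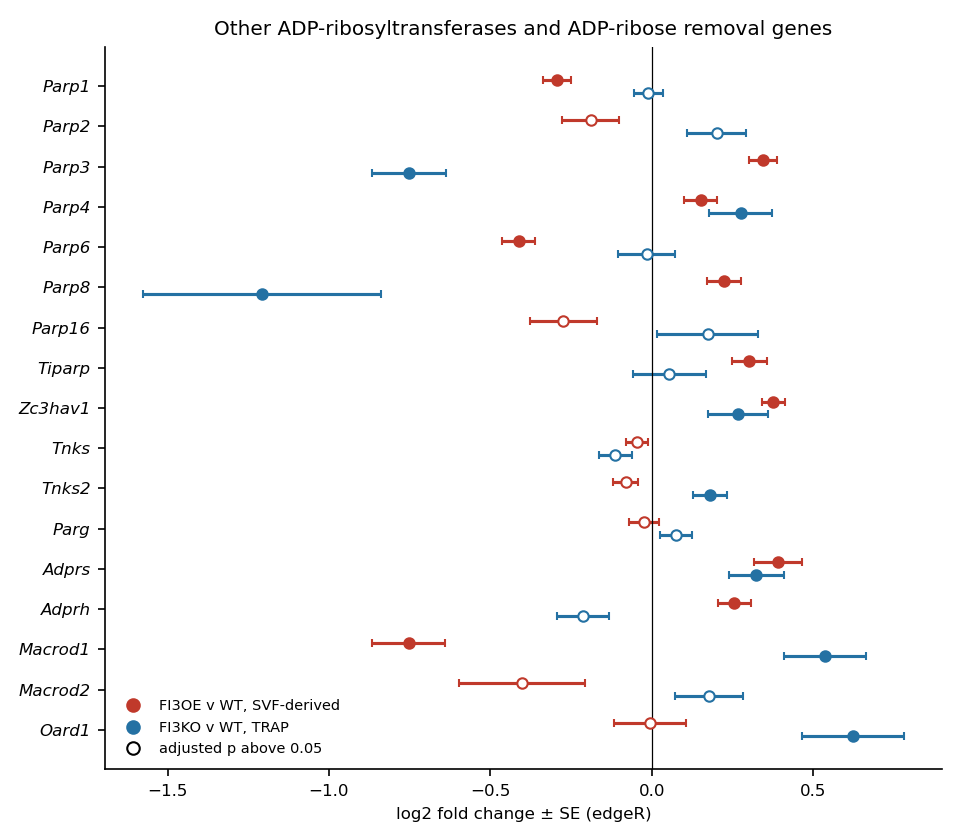
Log2 fold change (horizontal axis, edgeR) with SE for 11 other ADP-ribosyltransferase genes and 6 genes for the removal of ADP-ribose in the 2 experiments, with open circles where the adjusted p was above 0.05. Called values lie between -0.75 and 0.39 in the cultures, and between -1.21 and 0.62 in TRAP.

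Levels were compared between the 2 WT groups, in which IRF3 activity was not measured. They differ in fat depot, culture, virus, diet, age of the mice, genotype (IRF3-2D allele or Adipoq-Cre-driven tag) and ribosome pull-down. These differences cannot be told apart. Of 16454 genes tested, 42.1% were called higher in the WT cultures, and so were 4 of 6 members. Parp12 had a log2 difference of 1.69 (SE 0.080, adjusted p = 1.49e-08 by edgeR), from 18.4 ± 2.12 CPM in TRAP (SD, n = 6) to 81.6 ± 1.78 CPM in culture (SD, n = 3). Parp14 had 1.58 (SE 0.066, adjusted p = 5.40e-09), from 51.8 ± 4.21 to 213.1 ± 9.28 CPM. Parp10 had 1.01 (SE 0.088), and with Parp12 and Parp14 it was also past the fold cutoff, which 29.5% of genes met on the higher side together with the adjusted p. Parp10 missed that cutoff, at 0.96 to 0.99, without WT TRAP replicate 1, 2 or 3, without WT culture replicate 2, with no filter on low counts and in the fit of all 18 libraries. Parp11 had 0.33 (SE 0.079, adjusted p = 0.00268 by edgeR), which was 0.81 with a length offset and 0.51 with at least 10 counts in every library. Parp9 (-0.094, SE 0.073) and Dtx3l (-0.082, SE 0.089) were not called. The scaling matters here, because the median of all genes differed by 0.48 in plain log2 CPM and by 0.068 after TMM scaling. In plain CPM all 6 members were higher in the cultures with no overlap, as were 55.9% of genes, by 1.29-fold for Parp9 and 1.30-fold for Dtx3l, so that these 2 genes changed direction with TMM. All 12 reference genes were higher in the cultures, with a median of 3.84 and values from 6.44 for Rsad2 to 1.88 for Ifih1. By TMM-scaled values, 4 of 11 other ADP-ribosyltransferase genes were higher and 4 lower, from 3.03 for Parp8 to -1.08 for Parp3. For ADP-ribose removal, 1 of 6 genes was higher and 3 lower, from 0.44 for Adprh to -1.88 for Macrod2. Among the deltex ligases, 1 of 3 genes was higher and 1 lower, from 1.21 for Dtx3 to -1.18 for Dtx2. For NAD synthesis and use, 7 of 15 genes were higher and 2 lower, from 4.70 for Qprt to -2.24 for Nnmt. Of the genes that carry the interferon signal, 11 of 16 genes were higher and 3 lower, from 5.37 for Irf7 to -0.93 for Ifnar2. Markers of other cells moved too, with 14 of 15 macrophage markers and 6 of 8 fibroblast and preadipocyte markers higher in the cultures (medians 5.11 and 2.23) and 9 of 10 adipocyte markers lower (median -2.10). The fibroblast markers summed to 13476 to 13866 CPM in WT cultures and 970.7 to 2199 CPM in WT TRAP. Of 4 endothelial markers 3 were lower in the cultures, of 5 mesothelial markers 1 was higher and 2 lower, and of 2 T cell markers 1 was higher and 1 lower. The part of these cells was not tested.

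Per length, in TPM, Parp9 was the most abundant member in each of the 4 groups. In WT TRAP it had 50.6 ± 4.97 TPM (SD, n = 6), followed by Dtx3l with 34.6 ± 4.75 and Parp10 with 17.4 ± 2.38, and these 3 were apart from each other. Parp14 (13.6), Parp11 (12.9) and Parp12 (11.4) followed, with ranges over libraries that overlapped from each to the next, as did those of Parp10 and Parp14. The order in FI3KO TRAP differed, with Parp14 last at 10.9 TPM, and each neighbour overlapped with the next. In WT cultures Parp9 had 67.3 ± 3.53 TPM (SD, n = 3), followed by Parp14 (57.7), Parp12 (50.3), Dtx3l (49), Parp10 (47.8) and Parp11 (30.6). Parp12, Dtx3l and Parp10 overlapped each with the next, and the others were apart. FI3OE cultures had the same order of means, with overlap between Parp14 and Parp12 alone, from 106.8 ± 0.42 TPM for Parp9 to 60.8 ± 4.88 for Parp11 (SD, n = 3). The highest member was 4.42 times the lowest in WT TRAP and 1.76 times in FI3OE.

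Members varied together to different degrees. Over the 12 TRAP libraries, as a description without a test, Pearson's r of log2 CPM was 0.934 between Parp9 and Parp14 and 0.721 between Parp9 and Dtx3l, while that of Parp12 with Parp14 was 0.22. These libraries come from 2 genotypes and include the 2 sets of replicates. The 5 other genes most like the mean of the members there were Tram1 (r = 0.965), Hnrnpf (0.94), Prkcsh (0.939), Gmpr2 (0.931) and Osgin2 (0.924), out of 11233 genes and the 6 members. Over the 6 cultures, the same rule named Plac8, Ifit3, Angpt1, Helz2 and Ptprj. No coefficient is given for these, since the cultures fall into 2 groups.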

How the data were processed

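Per the labels and the methods of the study, reads were trimmed by the authors with bcl2fastq and fastp and quantified by the authors with Salmon (version 1.4.0 in the submitters' processing notes) against GENCODE M24 transcripts of GRCm38. The deposited tables give, for each of 18 libraries and 118733 transcripts, expected counts (estimated reads, neither whole nor normalized) and TPM (scaled by the authors for transcript length and to 1000000 in each library). GENCODE M21 placed 117850 transcripts (99.3%) in genes, and 883 without a match stood as single genes. Counts were summed per gene and rounded, and CPM is per 1000000 reads assigned. Counting error alone limits low values, and each member had at least 433 reads in each library.

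Each comparison was fitted on its own with edgeR 4.0.16 in R 4.3.3 (filterByExpr, TMM, quasi-likelihood test, Benjamini-Hochberg adjustment over all genes tested, adjusted p of at most 0.05), and the study's fold cutoff (absolute log2 fold change of at least 1) is given where named. Ratios were tested in scipy 1.17.1 under Python 3.11.15. Pearson's r used log2(CPM + 0.5). The genes named are all members, Irf3, Ifit1, Isg15 and, of each pathway list, the called genes with the largest and smallest log2 fold change in each comparison. Lists of cell type markers are given by counts and sums, and Parp3, Cd14, Cd3d, Trac and Lyz2 were added after their values were seen. The members and lists were chosen with earlier results of these data known. P-values measure only the spread between these libraries. On simulated data of the culture design (14168 genes), edgeR recovered 80% of changes of 0.75 and 99% of 1.5, with 12 false calls. For the TRAP design (12293 genes) it recovered 75.8% and 94%, with 8 false calls. The simulation held no replicate sets and no changes as small as those of the members in TRAP. Alternatives were DESeq2 1.42.0 and its size factors, other count filters, a length offset, 1 fit of all libraries, replicate sets, a replicate block and each library left out. Transcripts, the 2 close WT TRAP libraries as 1, and the ratio within replicate sets were added after seeing the data.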

Additional observations from a re-analysis of the deposited data

How the results depend on the processing

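In the cultures all 6 members were called higher in each of 13 alternatives. The count of all genes called there, 5960, was 3800 with a length offset and 1572 in a fit of all 18 libraries, and the cause was not tested. In TRAP the 2 members called lower were 0 without a filter on low counts, 1 with a length offset, 0 with replicates 1 and 2 only, 1 with replicates 3 to 6 only, and 0 to 2 when single libraries were left out, and the cause was not tested. With replicates 1 and 2 only, 500 genes were called in place of 5095, with fewer samples. Differences that did not pass changed sign as follows. Dtx3l in TRAP was -0.35 with replicates 1 and 2 only, -0.0018 with the replicate set as a term and -0.086 to 0.095 with single libraries left out. Parp10 was -0.072 and Parp11 0.027 with replicates 1 and 2 only. Parp11 was 0.00085 with a length offset and -0.070 to 0.017 with libraries left out. Between the WT groups, Parp9 was 0.084 and Dtx3l 0.097 with at least 10 counts in every library, and Dtx3l was 0.072 with a length offset. For the difference between replicate sets, leaving out libraries gave 2033 to 3874 genes, 0 to 1 members lower, -0.11 to 0.21 for Parp11 and -0.068 to 0.094 for Parp12. For transcripts in TRAP, leaving out libraries gave -0.23 to 0.11 for Parp11-201, -0.17 to 0.57 for Parp11-202, -0.049 to 0.14 for Dtx3l-201 and -0.037 to 0.12 for Parp9-201. Replicates 1 and 2 only gave -0.36 for Dtx3l-201 and -0.13 for Parp9-201, and replicates 3 to 6 only gave 0.10 for Parp11-201 and -0.35 for Parp11-202. The log2 ratio of Dtx3l to Parp9 differed by -0.028 with TRAP replicates 1 and 2 only and by -0.0059 to 0.068 in the cultures with libraries left out.

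Same-numbered libraries did not deviate together (r = 0.0394, -0.06 and -0.0363 in the cultures, and -0.374 to 0.075 in TRAP). The labels name no pairing, and these correlations cannot decide whether libraries of the same number share an animal or culture. With the replicate number as a block, 5658 genes were called in the cultures, all 6 members among them. In TRAP the block gave 3632 genes and 1 member lower, with Parp9 called and Parp14 not (adjusted p = 0.0509 by edgeR), Dtx3l at -0.014 and Parp11-202 at -0.34. The calls of Parp11-201, Parp9-201 and Parp9-203 in the cultures had adjusted p = 0.128, 0.0829 and 0.0574 by edgeR with the block.

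For each member and for the ratio of Dtx3l to Parp9, the values in FI3KO TRAP and in WT TRAP were checked for a single library far from the other 5, and none of these 14 checks found one.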
